A study of Mus musculus with 4 samples.

Results

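Fatty acid and triglyceride synthesis genes were examined in the skin of mice that lack or carry GSDMD, gasdermin D, the protein that opens pores in the membrane of cells dying by pyroptosis. The group was a fixed list of 10 genes matched by symbol, and 10 of the 10 were found among the 24441 genes of the table. The list holds Fasn, Acaca, Acly, Srebf1, Elovl6, Fads1, Fads2, Gpam, Dgat1 and Dgat2. RNA had been sequenced from lesional skin of 2 GSDMD-/- mice and 2 wild type mice, which are called KO and WT here, with 1 library per mouse label. All 4 libraries came from female C57BL/6 mice with a label of postnatal week 8, and all had been given bleomycin (BLM), a cytotoxic drug that scars the skin where it is injected, under the skin of the back every other day until day 28. The knockout had been made with Cas9 in fertilized eggs and is carried by every cell of the animal. No saline library was analysed here, so each value describes BLM-treated skin. Bulk skin holds epidermis, hair follicles, sebaceous glands, dermis, fat and muscle, and in such a sample fewer cells of a type and less RNA per cell cannot be told apart.

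Cells make fatty acids from citrate. ATP citrate lyase cuts citrate to acetyl-CoA, acetyl-CoA carboxylase turns it into malonyl-CoA, and fatty acid synthase joins these units into palmitate, which elongases lengthen and desaturases bend before acyltransferases place the chains on glycerol to form triglyceride. The transcription factor SREBP-1, the product of Srebf1, switches on many of these genes. In skin the pathway is known from dermal adipocytes, which store triglyceride, and from sebaceous glands, which secrete wax esters and triglyceride as sebum.

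The values are FPKM, fragments scaled to transcript length and to library depth, so that levels of different genes can be set side by side. Low values step up by whole fragments, and from the steps 1 fragment on 1 kb was estimated to be worth 0.0572 to 0.0786 FPKM, least in WT replicate 1 and most in KO replicate 2. Depth was thus of a like order in the 4 libraries, and is approximate. Gsdmd, the targeted gene, was at 14.0 and 18.2 FPKM in the WT pair against 3.53 and 2.26 FPKM in the KO pair (log2 fold change -2.14, limma adjusted p = 0.248). The 4 libraries differed in their marker genes. KO replicate 2 stood apart, with summed levels of 51.6 FPKM over 12 macrophage markers, 150.3 FPKM over 12 fibroblast markers and 21.3 FPKM over 10 endothelial markers, against ranges of 505 to 1162, 873 to 934 and 122 to 193 FPKM in the other 3 libraries. It was also the library with RNA of Y-linked genes, which were above 0 in 4 of 40 rows there, at a sum of 1.78 FPKM, and in 0 rows elsewhere, although the mice are labelled female. KO replicate 1 held 403 FPKM over 18 hair follicle markers, against 2.83 to 26.5 FPKM in the others. Markers of basal and suprabasal keratinocytes summed to 4174 to 5967 FPKM in WT mice and 6704 to 12552 FPKM in KO mice, and skeletal muscle markers to 28246 to 31407 and 18723 to 19938 FPKM. The keratinocyte markers did not move as 1. In 8 of 13 the KO pair lay wholly above the WT pair, beside 35.3% of all tested genes, and 3 were lowest in KO replicate 2. Krt14 had 1293 and 1215 FPKM in the WT pair against 2689 and 2735 FPKM in the KO pair. Lor had 1450 and 810 against 2844 and 155 FPKM.

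Across the 10 genes, 9 were highest in WT replicate 2 and 1, Elovl6, was highest in KO replicate 2. Of all 13027 tested genes, 22.3% were highest in WT replicate 2 and 41.6% in KO replicate 2. Of the 10 genes, 9 had a lower log2 mean in GSDMD KO mice and 1 a higher one, and their median log2 fold change was -0.84, beside 0.11 over all tested genes. Here and throughout, a fold change is the difference KO minus WT of log2(FPKM + 1), a scale on which low genes appear to differ less than they do. Every gene was tested with limma in a fit over the 13027 genes that reached 1 FPKM in 2 or more libraries, with Benjamini-Hochberg adjustment over that whole table. A gene was called where its adjusted p was below 0.05 and its fold change beyond 1 in either direction. By this rule 0 of the 10 genes were called, beside 0% of all tested genes, of which 2230 had an unadjusted p under 0.05. Without KO replicate 1, 2058 genes were called, among them Elovl6 (limma adjusted p = 0.000764), Dgat2 (0.0188), Fads1 (0.0204) and Fads2 (0.0471), and without KO replicate 2, 43 genes were called and 0 of the 10. In these fits the lone KO library is assumed to vary like the WT pair. With all libraries, at an unadjusted p under 0.05 and the same fold change, 2 of the 10, Fasn and Acaca, were lower, beside 4.14% of all tested genes, and 1, Elovl6, was higher, beside 6.16%. With 2 mice per group, exact permutation of the labels of 1 gene, two-sided, cannot give a p under 0.333. Without WT replicate 2 the median over the list was -0.45, and without WT replicate 1 it was -1.42.

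**Figure D1:**
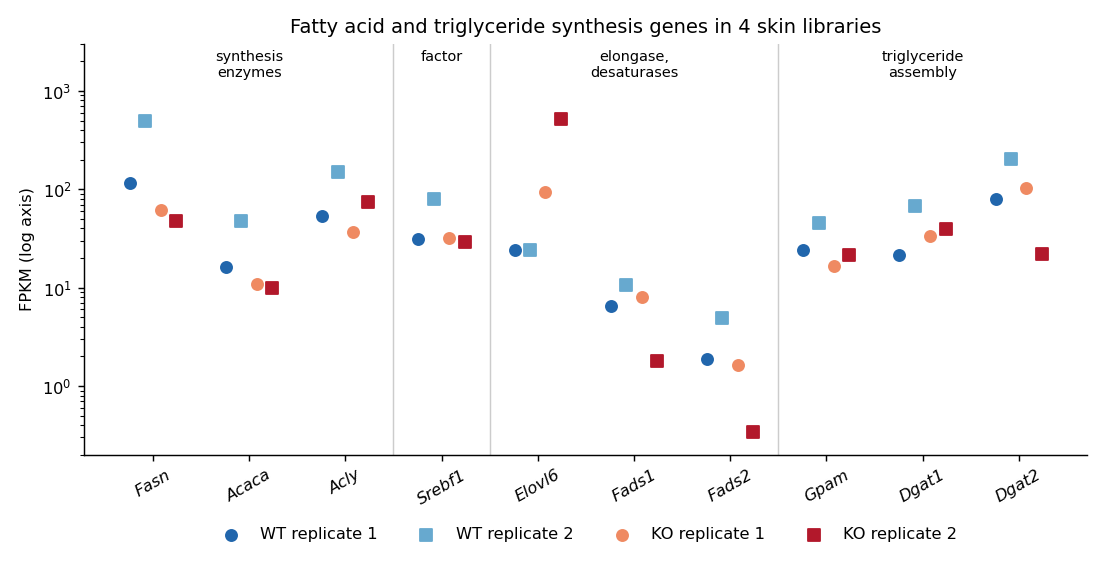
FPKM of the 10 genes on a log axis, 1 point per library (blue, WT; red and orange, KO; circles, replicate 1; squares, replicate 2), ordered by role. WT replicate 2 is the highest point for 9 genes, and for Elovl6 both KO points, 93.3 and 518 FPKM, lie above both WT points.

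The 3 enzymes that build palmitate had their highest values in WT replicate 2. Fasn, which encodes fatty acid synthase, lies on chromosome 11 of mm9 from 120667272 to 120685861, on the minus strand. Its level was 115 FPKM in WT replicate 1 and 492 FPKM in WT replicate 2, against 61.8 FPKM in KO replicate 1 and 47.7 FPKM in KO replicate 2. The groups did not overlap, yet the WT libraries differed from each other 4.26 times, more than WT replicate 1 differed from either KO library. The log2 fold change of Fasn was -2.11 (standard error, SE, 0.70, limma adjusted p = 0.262), and it was -1.07 without WT replicate 2 and -3.155 without WT replicate 1. Acaca, which encodes acetyl-CoA carboxylase alpha, the enzyme that makes malonyl-CoA, lies on the same chromosome from 84008940 to 84215153. It had 16.3 and 47.6 FPKM in the WT pair against 11.002 and 9.86 FPKM in the KO pair. The order was that of Fasn, with the KO libraries close to each other and the WT libraries 2.93 times apart. Its log2 fold change was -1.34 (SE 0.52, limma adjusted p = 0.290), and -0.60 without WT replicate 2 and -2.09 without WT replicate 1. An exon of Acaca overlaps the annotated gene Gm17722 on the opposite strand, and their reads cannot be told apart if strand was not used, which the sources used here do not give. Acly, which encodes ATP citrate lyase, lies on chromosome 11 from 100337666 to 100389314. It had 53.8 and 150.5 FPKM in the WT pair against 36.7 and 75.0 FPKM in the KO pair. Here the groups overlapped, since KO replicate 2 was above WT replicate 1. The log2 fold change of -0.77 (SE 0.60, limma adjusted p = 0.506) was -0.03 without WT replicate 2 and -0.26 without KO replicate 1. Leaving out WT replicate 1 gave -1.50, and leaving out KO replicate 2 gave -1.27.

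Srebf1, which encodes the factor that drives many of these enzymes, lies on chromosome 11 from 60012586 to 60034129. It had 30.9 and 79.0 FPKM in the WT pair against 32.0 and 29.4 FPKM in the KO pair. Of these values 3 lay close together and the value of WT replicate 2 was high, so the groups overlapped. Its log2 fold change was -0.67 (SE 0.47, limma adjusted p = 0.466), and -0.01 without WT replicate 2 and -1.34 without WT replicate 1. Srebf1 has alternative first exons, which the values per gene do not separate, and an exon of it overlaps Rai1 on the opposite strand.

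Promoter windows from RefSeq on GRCm38.p6 were at hand for 7 of the 10 genes, in 10 windows of 250 bases before an annotated start, and none was used for Dgat1, Dgat2 and Fads1. Sequences are printed for Fasn and Acly, which were highest in WT replicate 2, and for Elovl6, which was highest in KO replicate 2. Searched on both strands, the SRE core TCACNCCAC, an element that SREBP binds, was in 0 of the 10 windows and in 1.05% of all 32851 windows of this length. The E-box CACGTG was in 0 of the 10 and in 6.02% of all. The CCAAT box CCAAT, a site of NF-Y, was in 4 of the 10 windows and in 33.8% of all. The GC box GGGCGG, a site of Sp1, was in 5 of the 10 windows and in 32.7% of all. Some genes have more than 1 window, and counted by gene these boxes were in 3 and 4 of the 7. The Fasn window, chr11:120824548-120824797 on the minus strand, holds 3 matches to the CCAAT box, of which the middle one and the one nearest the start overlap. The Acly window, chr11:100528001-100528250 on the minus strand, holds 4 matches to the GC box. The Elovl6 window, chr3:129532136-129532385 on the plus strand, holds 0 matches to these letters. Each window is printed from 5′ to 3′ and ends just before the start, with matches in capitals.
Fasn: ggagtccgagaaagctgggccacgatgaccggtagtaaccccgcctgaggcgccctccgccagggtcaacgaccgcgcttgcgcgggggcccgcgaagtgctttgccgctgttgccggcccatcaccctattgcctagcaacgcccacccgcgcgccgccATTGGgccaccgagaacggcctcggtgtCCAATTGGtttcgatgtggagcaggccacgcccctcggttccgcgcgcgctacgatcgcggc
Acly: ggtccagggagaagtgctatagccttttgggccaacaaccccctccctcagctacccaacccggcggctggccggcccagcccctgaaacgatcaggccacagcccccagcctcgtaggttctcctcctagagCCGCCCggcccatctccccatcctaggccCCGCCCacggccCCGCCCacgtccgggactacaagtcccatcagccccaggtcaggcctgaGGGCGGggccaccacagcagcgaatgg
Elovl6: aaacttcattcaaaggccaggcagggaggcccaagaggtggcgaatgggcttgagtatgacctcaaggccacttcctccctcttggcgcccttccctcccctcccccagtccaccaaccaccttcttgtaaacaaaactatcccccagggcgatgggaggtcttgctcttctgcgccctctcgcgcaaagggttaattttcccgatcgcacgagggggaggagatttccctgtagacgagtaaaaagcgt

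Elovl6, the elongase that turns palmitate into stearate, had the pattern least like the others. The gene lies on chromosome 3 of mm9 from 129235304 to 129341411, on the plus strand, with 1 annotated transcript of 5 exons. Its level was 24.2 FPKM in WT replicate 1 and 24.3 FPKM in WT replicate 2, against 93.3 FPKM in KO replicate 1 and 518 FPKM in KO replicate 2. The groups did not overlap, and the KO libraries differed from each other 5.55 times. The log2 fold change was 3.13 (SE 0.80, limma adjusted p = 0.248). Leaving out KO replicate 2 gave 1.90, and leaving out KO replicate 1 gave 4.36. Within a library, the ratio of Elovl6 to Fasn in FPKM was 0.210 and 0.0494 in WT replicates 1 and 2 and 1.51 and 10.9 in KO replicates 1 and 2. The most abundant of the 10 transcripts was therefore Fasn in both WT libraries and Elovl6 in KO replicate 2, while in KO replicate 1 it was Dgat2, at 104 FPKM.

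The desaturases Fads1 and Fads2 act on polyunsaturated fatty acids and lie near each other on chromosome 19 of mm9, Fads2 from 10138654 to 10175993 and Fads1 from 10257378 to 10271362, with 81.4 kb between them. Both were low in KO replicate 2. Fads1 had 6.54 and 10.6 FPKM in the WT pair against 8.12 and 1.81 FPKM in the KO pair, and KO replicate 1 lay between the WT libraries. Its log2 fold change was -0.88 (SE 0.61, limma adjusted p = 0.461), against -0.03 without KO replicate 2, -0.57 without WT replicate 2 and -1.73 without KO replicate 1. Fads2 was the lowest of the 10 genes in every library, with 1.88 and 4.88 FPKM in the WT pair against 1.64 and 0.343 FPKM in the KO pair. Its KO libraries were below its WT libraries, although KO replicate 1 and WT replicate 1 were close. The log2 fold change was -1.13 (SE 0.50, limma adjusted p = 0.323), and it ran from -1.64 without WT replicate 1 to -0.61 without WT replicate 2. With a pseudocount of 0.1 and all libraries it was -1.84. The value of KO replicate 2 corresponds to an estimated 6.58 fragments over the annotated transcript of 1508 bases, so it is imprecise.

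Triglyceride is assembled by acyltransferases. Gpam, which encodes the mitochondrial enzyme that adds the first chain to glycerol phosphate, lies on chromosome 19 from 55144224 to 55173937. It had 23.9 and 45.6 FPKM in the WT pair against 16.5 and 21.3 FPKM in the KO pair, with a small gap between the groups. Its log2 fold change was -0.79 (SE 0.37, limma adjusted p = 0.341), and -0.33 without WT replicate 2 and -1.24 without WT replicate 1. Dgat1 and Dgat2 encode unrelated enzymes that add the last chain. Dgat1, on chromosome 15 from 76332442 to 76342424, stood at 21.6 and 68.3 FPKM in the WT pair against 33.2 and 39.2 FPKM in the KO pair. Both KO libraries lay between the WT libraries. Its log2 fold change of -0.09 (SE 0.56, limma adjusted p = 0.940) was on the other side of 0, at 0.72, without WT replicate 2, and at -0.90 without WT replicate 1. Dgat2, on chromosome 7 from 106302173 to 106331223, stood at 79.1 and 202 FPKM in the WT pair against 104 and 22.1 FPKM in the KO pair. KO replicate 1 lay between the WT libraries and KO replicate 2 below all of them. The log2 fold change was -1.38 (SE 0.83, limma adjusted p = 0.414), -0.28 without KO replicate 2, -0.71 without WT replicate 2 and -2.47 without KO replicate 1. The ratio of Dgat2 to Dgat1 was 3.67 and 2.96 in WT and 3.13 in KO replicate 1, and 0.563 in KO replicate 2.

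Replicates of 1 group differed in both WT and KO mice. WT replicate 2 was 1.62 to 4.26 times WT replicate 1 in 9 genes and 1.00 times in Elovl6. Between KO replicates, Fads1, Fads2 and Dgat2 were at 0.223, 0.209 and 0.212 of their replicate 1 value in replicate 2. Fasn, Acaca and Srebf1 were at 0.771, 0.896 and 0.918, and Dgat1, Gpam, Acly and Elovl6 at 1.18, 1.29, 2.05 and 5.55. Of the 10 genes, the KO pair lay wholly below the WT pair in 4 (Fasn, Acaca, Fads2 and Gpam), beside 20.5% of all tested genes, and wholly above it in 1 (Elovl6), beside 35.3%.

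**Figure D2:**
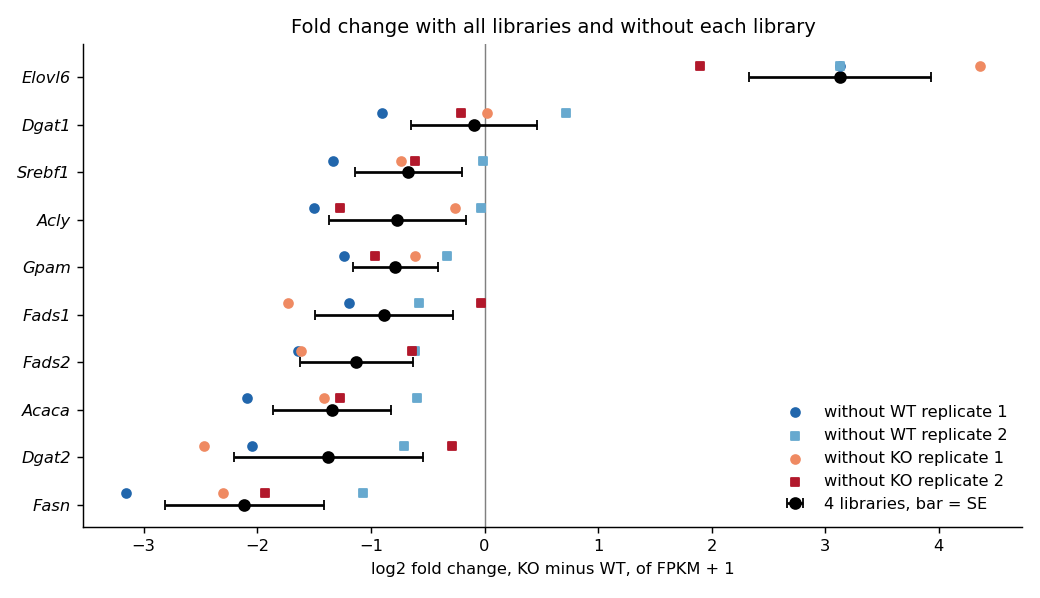
Log2 fold change (KO minus WT) of the 10 genes with all 4 libraries (black, bar = standard error) and without each library in turn (coloured points). Points without WT replicate 2 lie nearer 0 than the black point for Fasn, Acaca, Acly, Srebf1, Fads1, Fads2, Gpam and Dgat2, for Dgat1 that point is at 0.72, and for Elovl6 it lies on the black point.

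Adipocyte markers, like 9 of the 10 genes, were mostly highest in WT replicate 2, and sebocyte markers, like Elovl6, mostly in KO replicate 2. Of 15 adipocyte markers, 15 were tested, 14 were highest in WT replicate 2 and 14 were lowest in KO replicate 2. Of all 13027 tested genes, 4336 were lowest in KO replicate 2, and so were 12 of 12 macrophage, 11 of 12 fibroblast and 10 of 10 endothelial markers. Highest in WT replicate 2 were 22.3% of all tested genes, and 8 of 12 macrophage, 6 of 10 endothelial and 2 of 12 fibroblast markers. Summed levels of the adipocyte markers were 5673 and 13166 FPKM in the WT pair against 6226 and 1479 FPKM in the KO pair. None of them was at 0 in a library, and their median log2 fold change was -1.94, which was -0.47 without KO replicate 2, -3.50 without KO replicate 1 and -1.15 without WT replicate 2. Cfd, which encodes adipsin, had 1642 and 4123 FPKM in the WT pair against 1874 and 102 FPKM in the KO pair, and Fabp4, the fatty acid carrier of fat cells, had 1386 and 3497 against 1779 and 171 FPKM. Of 15 sebocyte markers, 13 were highest in KO replicate 2, beside 41.6% of all tested genes, and 0 were at 0 in a library. Their sums were 939 and 1151 FPKM in the WT pair against 1732 and 4123 FPKM in the KO pair. Their median log2 fold change was 1.65, which was 1.14 without KO replicate 2, 2.38 without KO replicate 1 and 2.32 with a pseudocount of 0.1. Of the 15 markers, 13 had a positive and 2 a negative fold change, beside 7635 positive of all 13027 tested genes. Krt79, a keratin of the sebaceous duct, had 156 and 101 FPKM in the WT pair against 427 and 919 FPKM in the KO pair. Mgst1, also among the 3 most abundant, had 177 and 387 against 238 and 685 FPKM, so its groups overlapped. Its log2 fold change of 0.62 was -0.14 without KO replicate 2. Far2, an enzyme that makes fatty alcohol for sebum waxes and was chosen after its values were seen, read 7.75 and 2.99 against 34.6 and 267 FPKM. The part of either cell type in the values of the synthesis genes was not tested.

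**Figure D3:**
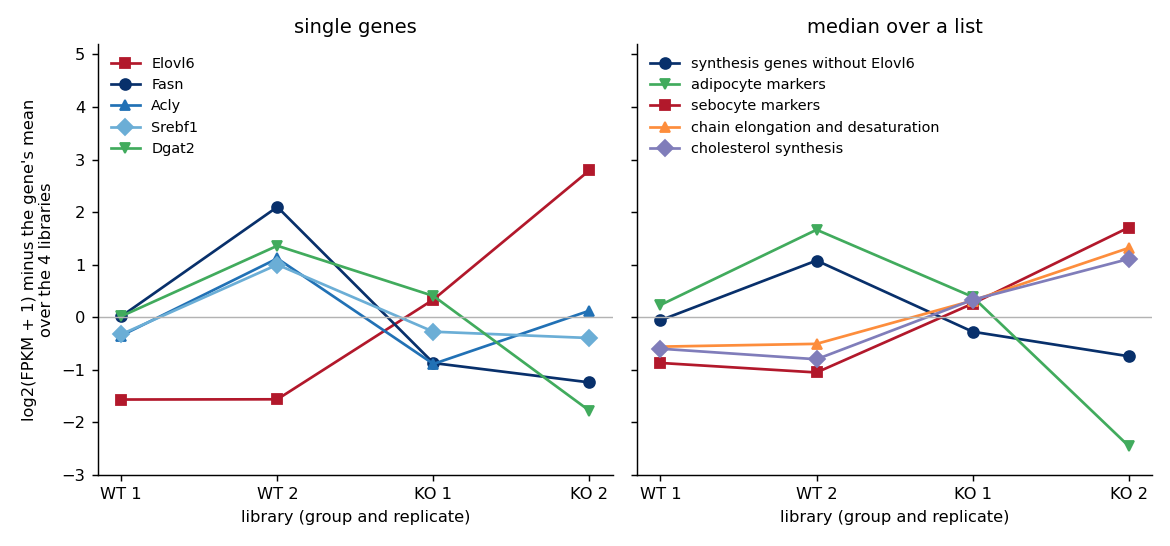
Log2(FPKM + 1) minus each gene's mean over the 4 libraries, for 5 single genes (left) and as the median over a list (right); the lines join libraries only to guide the eye. Synthesis genes without Elovl6 and adipocyte markers peak in WT replicate 2, and Elovl6, sebocyte markers, chain elongation and cholesterol synthesis genes peak in KO replicate 2.

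The remaining genes of the pathway were taken from fixed lists. Of 14 tested partners of de novo synthesis, which supply NADPH and acetyl units or desaturate new chains, 11 had a negative fold change and 8 were highest in WT replicate 2, with a median log2 fold change of -0.32. None was called by limma, and at an unadjusted p under 0.05 with the fold change limit 0 were higher and 1, Thrsp, was lower, beside 4.14% of all tested genes. Thrsp, the thyroid hormone responsive gene of lipogenic tissue, had 135 and 556 FPKM in the WT pair against 84.7 and 9.98 FPKM in the KO pair, a log2 fold change of -3.16 (SE 1.15, limma adjusted p = 0.278), which was -1.68 without KO replicate 2. The median of this list was on the other side of 0 without WT replicate 2, at 0.08, and without KO replicate 1, at 0.13. It was -0.59 when WT replicate 1 was left out and -0.49 when KO replicate 2 was. Of 15 genes that control SREBP and related factors, 0 passed either threshold, beside 6.16% of all tested genes higher and 4.14% lower at the unadjusted one. The median of 0.06 was on the other side of 0, at -0.07, with libraries centred on their medians, and ran from 0.10 to 0.29 without each library in turn. Insig1, which holds SREBP in the endoplasmic reticulum, had 11.1 and 25.1 FPKM in the WT pair against 22.3 and 50.9 FPKM in the KO pair. Mlxipl, which encodes the glucose-responsive factor ChREBP, had 20.3 and 29.5 against 19.3 and 5.78 FPKM, and Nr1h3, which encodes the sterol receptor LXR alpha, 14.8 and 41.1 against 15.1 and 7.80 FPKM.

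Other enzymes of chain elongation and desaturation, for which Elovl6 was not counted, mostly had the direction of Elovl6. Of 12 tested genes, 9 had a positive fold change, in 8 the KO pair lay wholly above the WT pair, beside 35.3% of all tested genes, and the median log2 fold change was 1.70, which was 0.64 without KO replicate 2. At the unadjusted threshold 4 were higher, beside 6.16% of all tested genes, and 0 were lower, and 0 were called after adjustment. Elovl3 and Elovl4, elongases of very long chains, had 8.90 and 4.64 FPKM and 47.7 and 11.9 FPKM in WT, against 58.3 and 297 FPKM and 201 and 883 FPKM in KO libraries. Their log2 fold changes were 4.15 and 4.08 (adjusted p = 0.248 for each by limma). Elovl3 is also on the list of sebocyte markers. Hacd2, a dehydratase of the elongation cycle, had 8.12 and 13.8 FPKM in the WT pair against 17.1 and 93.1 FPKM in the KO pair. Fads3, a relative of Fads1 and Fads2, had 11.1 and 27.6 FPKM in the WT pair against 13.2 and 1.45 FPKM in the KO pair, so that it too was low in KO replicate 2.

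Acyl activation and glycerolipid assembly was mixed. Of 17 tested genes, 8 had a positive and 9 a negative fold change, and the median log2 fold change was -0.35, which was 0.04 without KO replicate 2 and -0.03 without WT replicate 2. At the unadjusted threshold 2 were higher, beside 6.16% of all tested genes, and 2 were lower, beside 4.14%, and 0 were called after adjustment. Acsbg1 and Acsl5, which activate fatty acids with coenzyme A, had 14.9 and 13.4 FPKM and 16.1 and 13.0 FPKM in WT, against 44.0 and 163 FPKM and 36.2 and 145 FPKM in KO libraries. Gpd1, which makes glycerol phosphate, had 207 and 391 FPKM in the WT pair against 108 and 101 FPKM in the KO pair, a log2 fold change of -1.44 (SE 0.36, limma adjusted p = 0.248). Lpin1, a phosphatidate phosphatase, had 26.6 and 34.1 against 15.8 and 11.007 FPKM. Both kept a fold change below 0 without any single library. Agpat2, which adds the middle chain in fat cells, had 49.5 and 255 FPKM in the WT pair against 52.3 and 57.8 FPKM in the KO pair, where only WT replicate 2 stood apart.

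Cholesterol synthesis genes, which the related factor SREBP-2 controls, were compared as the most similar pathway. Of 19 tested genes, 18 had a positive fold change and in 18 the KO pair lay wholly above the WT pair, against 1 of the 10 fatty acid and triglyceride synthesis genes. Of all 13027 tested genes, 7635 had a positive fold change and 35.3% lay wholly above. The median log2 fold change of the cholesterol synthesis genes, 1.40, was 1.00 without KO replicate 2. At the unadjusted threshold 13 of 19 were higher, beside 6.16% of all tested genes, and 0 were lower, and 0 were called after adjustment. Msmo1, a sterol oxidase, had 22.2 and 8.63 FPKM in the WT pair against 75.8 and 333 FPKM in the KO pair, a log2 fold change of 3.42 (SE 0.80, limma adjusted p = 0.248). Idi1, which makes an isoprenoid building block, had 11.7 and 3.97 against 38.6 and 141 FPKM. Sc5d was the exception, at 12.4 and 16.8 FPKM in the WT pair against 17.2 and 7.82 FPKM in the KO pair. Hmgcs1, named after its values were seen, was listed at 0 in all 4 libraries, which can be a failed estimate. The difference between the lists was not tested.

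**Figure D4:**
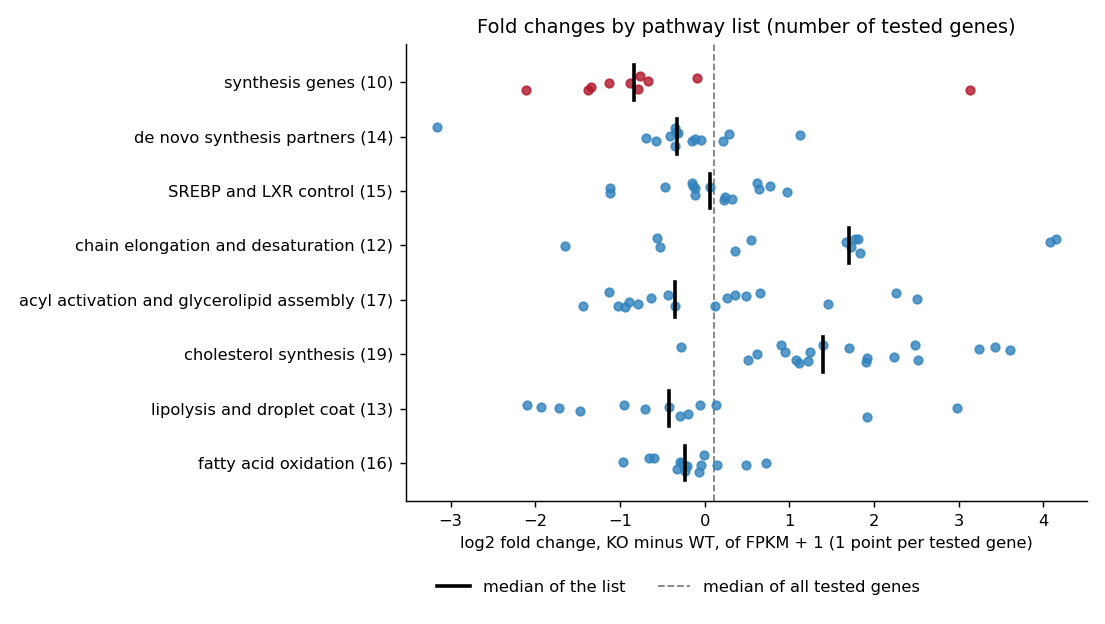
Log2 fold change (KO minus WT) of each tested gene by list, with the median of the list (black bar) and of all tested genes (dashed line, 0.11). The fatty acid and triglyceride synthesis genes have a median of -0.84 with Elovl6 far to the right, and cholesterol synthesis and chain elongation have medians of 1.40 and 1.70.

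By Euclidean distance between profiles of log2(FPKM + 1), each centred on its gene's mean over the 4 libraries, Srebf1 was the nearest of the 10 genes to their median profile, at 0.319, and Elovl6 the farthest, at 4.54. The median distance of all tested genes outside the list was 1.43. Fasn and Dgat2, at 1.42 and 1.40, were about as far from the median profile of the 10 genes. The nearest genes outside the list were Car5b at 0.0940, Pitpnm1 at 0.108, Insl3 at 0.115, Slc5a6 at 0.144 and Oscp1 at 0.147. Car5b, a mitochondrial carbonic anhydrase, had 7.97 and 18.2 FPKM in the WT pair against 7.12 and 5.42 FPKM in the KO pair. With 4 libraries such distances only describe these samples.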

How the data were processed

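Skin RNA of 2 GSDMD KO and 2 WT mice was analysed, with groups and replicate numbers taken from the sample titles. Per the labels and the study's methods, HISAT2 (version 2.0.1) was the aligner, with mm9 as the genome. The submitters' processing notes also name StringTie (version 2.0.6), with no role. The deposited table is named as counts, but 99.993% of its values above 0 are not whole and were read as FPKM, a unit in which the authors had corrected for transcript length and depth. A count model therefore was not used. Depth was estimated from the step of 1 fragment in 2710 genes with a single GENCODE transcript of at least 2 kb. No interval was derived from it.

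Values were transformed to log2(FPKM + 1). Genes reaching 1 FPKM in 2 or more libraries entered limma (version 3.58.1, in R 4.3.3) with a term for genotype, a trended empirical Bayes prior and Benjamini-Hochberg adjustment over all 13027 genes. The fit was tested on simulated data. Python 3.11.15 and pandas 2.3.3 handled the tables. Gene coordinates are those of the deposited table, on mm9, and exons and overlaps are from the GENCODE annotation of that build. Members, gene lists and tests were chosen with earlier results of these data known. Named were all 10 members, Gsdmd, at most the 3 genes with the largest rise and the 3 with the largest fall of a pathway list, at most the 3 most abundant markers of a list and the 5 nearest profiles. Genes outside this rule are marked. Nothing says that the libraries came from separate litters or batches, and p-values measure only the spread between these libraries. Alternatives were other pseudocounts (0.1 and 0.5), filters (none, and 5 FPKM), scalings, no trend, the replicate number as a block and leaving out each library. A block with crossed replicate numbers was added after seeing the data. Of the names in the table, 26 had been turned into dates. The values of 1 gene are not reported here.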

Additional observations from a re-analysis of the deposited data

How the results depend on the processing

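With each of the 11 alternatives that kept all 4 libraries, the 10 genes kept their direction, except that Fads2 was not tested at 5 FPKM. The number of genes called over the whole table was 0 with those alternatives. It was 0 without WT replicate 1 or WT replicate 2, 43 without KO replicate 2 and 2058 without KO replicate 1, where the lone library of a group is assumed to vary like the other group. Without each library in turn, the median of the 10 genes ran from -1.42 to -0.45, and 2 to 7 of them passed an unadjusted p under 0.05 with an absolute log2 fold change above 1 (3 with all libraries). Over all 13027 genes that threshold was passed by 888 higher and 428 lower without WT replicate 1 (7 of the 10), 266 and 242 without WT replicate 2 (2) and 1412 and 1605 without KO replicate 1 (6). When KO replicate 2 was left out it was passed by 734 higher and 333 lower (2 of the 10). The log2 fold change of Dgat1 ran from -0.90 to 0.72. It was 0.02 without KO replicate 1. Scaling moved the split of all genes at the unadjusted threshold from 802 higher and 539 lower to 579 higher and 735 lower when libraries were centred on their medians, and the median of all genes from 0.11 to -0.01, while the median of the 10 genes went to -0.96.

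Same-numbered libraries were checked for pairing, and their deviations from the group means correlated at -0.202 across 13027 genes. No source ties a number to a litter or batch. With the replicate block, 0 genes were called, the median of the 10 genes was -0.84 and 3 passed the unadjusted threshold, beside 907 higher and 686 lower of all genes. With the crossed replicate block, added after seeing the data, 0 genes were called and 5 of the 10 passed it, 1 higher and 4 lower, beside 819 higher and 681 lower of all genes. At FPKM below about 1, as for Fads2 in KO replicate 2, depth limits the precision.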

Other observations

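Genes of fat breakdown and of the coat of lipid droplets were also measured, as 1 list. Of 13 tested genes of lipolysis and the lipid droplet coat, 10 had a negative log2 fold change and the median was -0.42. That median was -0.04 without WT replicate 2, -0.25 without KO replicate 1 and -0.72 without WT replicate 1. At an unadjusted p under 0.05 with an absolute log2 fold change above 1, 1 was higher, beside 6.16% of all tested genes, and 0 were lower, and 0 were called by limma after adjustment. Cidea, a droplet protein that is also on the sebocyte list, had 11.3 and 15.1 FPKM in the WT pair against 44.6 and 267 FPKM in the KO pair. Its relative Cidec, a droplet protein of fat cells, had 116 and 467 FPKM in the WT pair against 200.4 and 17.6 FPKM in the KO pair. The lipases Lipe and Pnpla2 had 72.2 and 269 and 127 and 418 FPKM in WT, against 86.2 and 11.4 and 113 and 42.7 FPKM in KO libraries. Mgll, the monoglyceride lipase, was highest in KO replicate 2, at 487 FPKM against 109 FPKM in KO replicate 1 and 38.9 and 93.2 FPKM in WT.

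Fatty acid oxidation genes spanned a narrower range. Of 16 tested genes, 13 had a negative log2 fold change, 0 passed the unadjusted threshold with the fold change limit in either direction, beside 6.16% of all tested genes higher and 4.14% lower, and the list ran from -0.96 to 0.72 with a median of -0.23, which was -0.12 without WT replicate 2. Cpt1b, the muscle form of the enzyme that passes fatty acids into mitochondria, had 65.1 and 58.4 FPKM in the WT pair against 43.1 and 22.5 FPKM in the KO pair. Ppara, the factor that drives oxidation genes, had 1.14 and 1.45 FPKM in the WT pair against 1.99 and 3.77 FPKM in the KO pair.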
